A study of Homo sapiens with 21 samples.

Results

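The genes of the proteasome, the particle that degrades ubiquitin-tagged proteins, were examined in xenograft tumors of A549 cells, a human lung adenocarcinoma line. Members were taken by symbol alone, as every gene named PSMA, PSMB, PSMC, PSMD, PSME, PSMF or PSMG followed by a number, which gave 48 of the 60651 genes in the count table. RNA had been sequenced from 21 tumors, 7 from each of 3 groups of mice. The cells were the luciferase-carrying derivative A549-Luc2, grown under the skin of female athymic nu/nu mice aged 6 to 8 weeks at injection. The Control mice received the carrier solution alone, and the other groups received Oxy186 or Oxy210, both semisynthetic oxysterols, every day by mouth at 50 mg/kg in that same carrier of DMSO, ethanol, PEG400 and corn oil. The design asks how each compound changed the tumors, and how they differed at a matched dose. All tumors came from 1 cell line, and athymic mice lack mature T cells. The labels do not state whether each library came from its own mouse, so p-values measure the spread between these samples.

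The proteasome consists of a 20S core and a 19S cap. The core stacks rings of alpha subunits, which gate the entry, on rings of beta subunits, of which PSMB5, PSMB6 and PSMB7 cut the protein chain. The cap recognizes ubiquitin, removes it and feeds the unfolded chain into the core with the help of the PSMC ATPases. Interferon-gamma induces the alternative cutting subunits PSMB8, PSMB9 and PSMB10, which take the places of PSMB5, PSMB6 and PSMB7 in the immunoproteasome, and the activator subunits PSME1 and PSME2.

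Each library held between 13787493 and 17865119 counts, and the 48 genes together took between 0.423% and 0.589% of them. After the low-count filter, 46 of the 48 remained among the 16990 genes kept over the 21 tumors. PSMA8, the testis form of an alpha subunit, had 0 counts in every tumor, which allows up to 0.168 to 0.218 CPM (counts per 1000000 counts in the library) depending on the library. PSMB11, the thymus form of PSMB5, had 0 to 2 counts. The study chose the Oxy186 tumors r1-r4 over r5-r7 for comparison from an expression plot of these same libraries, so their comparison with the controls is not an independent test. In r1-r4, genes rich in G and C bases read lower: the slope of a gene's relative log2 CPM per 10 percentage points of exon GC content was between -0.511 and -0.18, against -0.15 to 0.397 in the controls, -0.329 to 0.262 in Oxy210 and 0.079 to 0.491 in r5-r7, so that the ranges of r1-r4 and Oxy210 overlapped. The 8 epithelial and A549 markers, such as KRT8 and ALDH1A1, summed to between 13830 and 26010 CPM. Of the 10 stroma, vessel and leukocyte markers, 3 passed the filter, and the list summed to between 22.5 and 71.96 CPM. Within the list, COL1A1 alone had a median of 39.03 CPM, while CD3E, COL1A2 and VWF had a median of 0 CPM. Stroma in a xenograft comes from the mouse host, and these counts keep human genes only. The list therefore does not measure the amount of mouse stroma.

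Levels in the control tumors spanned from 1.78 to 233.1 CPM per kb of the canonical transcript among the 46 genes. On this scale the highest were PSMA7, an alpha subunit, at 233.1 ± 44.2 CPM (SD, n = 7), PSMB4, a structural beta subunit, at 223.3 ± 38.2, and PSMB3, another one, at 196.9 ± 59.1. These neighbours differed by less than their spread. The lowest were PSMA2 at 1.78 ± 0.58, the immunoproteasome subunit PSMB9 at 4.47 ± 0.82, and PSMD9, a chaperone that helps to build the cap, at 6.58 ± 1.11. The 3 constitutive cutting subunits stood close together, PSMB6 at 153.0 ± 32.5, PSMB7 at 143.1 ± 36.1 and PSMB5 at 119.8 ± 17.7. The immunoproteasome subunits stood below all 3, PSMB8 at 25.6 ± 3.5 and PSMB10 at 6.95 ± 2.47.

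Several low values coincide with shared exons. In 7 of the 46 genes, at least 25% of the canonical transcript lies in an exon of another annotated gene, on either strand. PSMA2 is covered to 100% by a read-through gene on its own strand, which itself received at most 4 counts, PSMA6 to 81.4%, PSMA1 to 67%, PSMB10 to 56.1% and PSMD9 to 28.8%. PSMC1, an ATPase of the cap, is covered to 83.2% by exons of NRDE2 on the opposite strand, and PSMD7, a cap scaffold subunit, to 51.6%. Reads in such stretches could belong to either gene, and whether the counting used the strand is not given in the sources used here. The levels of these genes are therefore uncertain, and whether the overlap lowers them was not tested. PSMA1 stood at 40.5 CPM per kb despite its overlap, and PSMB9, among the lowest, has an overlap of 0%. The overlaps come from a later GENCODE release than the one the authors counted on.

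**Figure D1:**
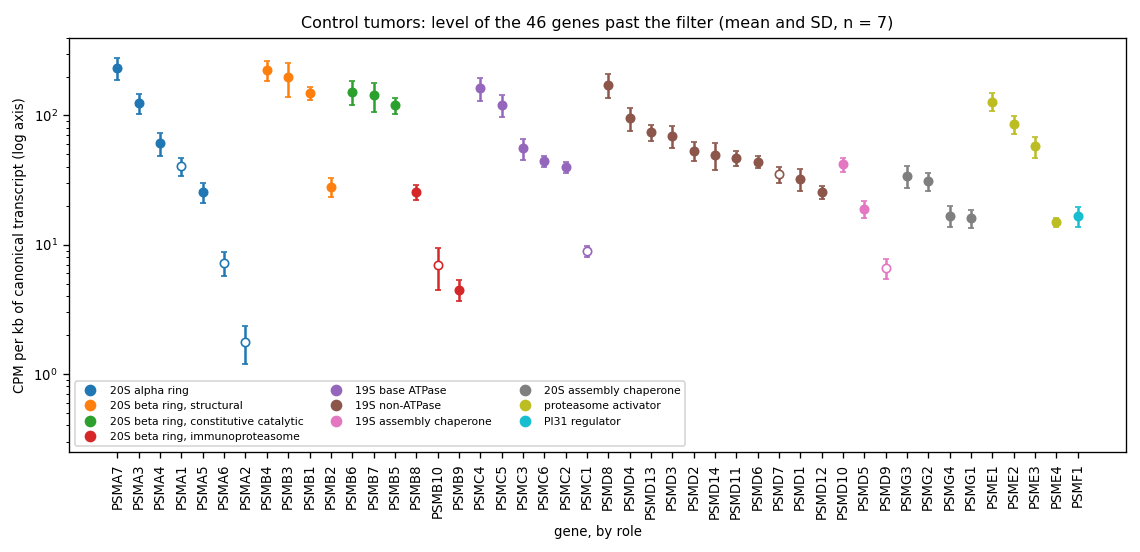
Mean and SD over the 7 control tumors of each gene's level, in CPM per kb of canonical transcript on a log axis, with genes grouped and coloured by role; open circles mark the 7 genes with at least 25% of the transcript in an exon of another gene. PSMA7, PSMB4 and PSMB3 lie at the top, and the lowest values are those of PSMA2 and PSMB9.

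Within the activators, PSME1 (128.1 ± 20.3 CPM per kb) and PSME2 (85.7 ± 13.6), which together form the PA28 alpha-beta ring, stood above PSME3 (57.7 ± 10.6), the nuclear PA28 gamma, and PSME4 (14.9 ± 1.3), the PA200 activator. PSMF1, which encodes the regulator PI31, was at 16.7 ± 3.0. The 11 non-ATPase subunits of the cap ranged from 25.7 to 172.9 CPM per kb with a median of 49.8, and the 4 chaperones that assemble the core from 16.0 to 34.1.

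Of the 5 interferon-inducible members PSMB8, PSMB9, PSMB10, PSME1 and PSME2, all but PSMB9 hold a shared element near the start site in the windows searched, and the stretches around it are shown because the levels of these genes are followed below. RefSeq promoter windows, from 250 bases before to 50 bases after each start on GRCh38.p14, were matched by symbol for 42 of the 48 genes. The core letters of the interferon-stimulated response element, GAAANNGAAA on either strand, were found in 7 of the 42 genes (16.67%) and in 4.38% of 27305 genes overall. The exact form GAAAGCGAAA, singled out after these windows were read, was found in 5 of the 42 genes (11.9%) and in 0.125% of all genes. Each stretch is given 5′ to 3′ on the strand of its gene with the element in capitals, and it reads as the reverse complement in PSMB8 and PSME1.
PSMB8, chr6:32844032-32844061, minus strand: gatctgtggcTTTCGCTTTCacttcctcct
PSMB10, chr16:67936852-67936881, minus strand: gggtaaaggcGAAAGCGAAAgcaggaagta
PSME1, chr14:24136189-24136218, plus strand: gccctaccgcTTTCGCTTTCccttcgcggt
PSME2, chr14:24146619-24146648, minus strand: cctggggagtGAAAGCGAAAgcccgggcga
PSMG4, chr6:3258904-3258933, plus strand: ttccggggccGAAAGCGAAAgcgcgctcgg
The element begins at -4, -21, 6, -28 and -33 in these 5 genes, in the order shown, where the first transcribed base counts as 1. PSMG4 encodes a chaperone of core assembly. A second motif, the antioxidant response element core TGACNNNGC, through which NRF factors act on many proteasome genes, was found on either strand in 15 of the 42 genes (35.71%) and in 16.06% of all genes. It is shown for PSMA4, an alpha subunit, and for PSMD3, the members whose copy begins with TGACTC.
PSMA4, chr15:78540650-78540678, plus strand: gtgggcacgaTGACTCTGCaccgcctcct
PSMD3, chr17:39980760-39980788, plus strand: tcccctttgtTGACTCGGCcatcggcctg
These matches describe letters and not binding.

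The 46 genes tended to be high or low together within a tumor, and this varied inside each group. The share of all genes above their own means was not computed. The pattern therefore cannot be called particular to proteasome genes. In the Oxy186 tumor 3, 41 of 46 genes lay above their own mean over the 21 tumors, with a median deviation of 0.45 on the log2 scale. In Control 4 it was also 41 of 46 with a median of 0.28, and in Oxy186 tumor 7 it was 39. At the other end, 7 of 46 genes lay above their mean in Oxy210 tumor 7 and 8 in Control 5. The median deviation averaged 0.02 ± 0.15 (SD, n = 7) in the controls, 0.09 ± 0.21 in Oxy186 and -0.09 ± 0.11 in Oxy210, so the ranges of the groups overlapped. After each library's GC trend was removed, Oxy186 tumor 3 stood at 0.22 and Control 4 at 0.27. In bulk tissue, fewer cells of a type and less RNA per cell cannot be told apart.

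**Figure D2:**
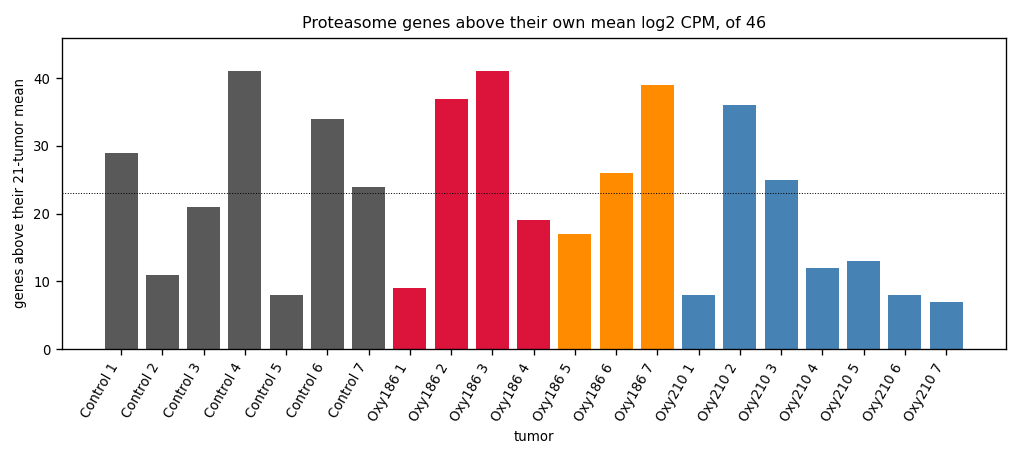
Number of the 46 genes above their own mean log2 CPM in each of the 21 tumors; grey bars are Control, red and orange bars Oxy186 r1-r4 and r5-r7, blue bars Oxy210, and the dotted line marks 23 genes. Control 4 and Oxy186 tumor 3 reach 41, and 6 tumors spread over the 3 groups lie at 11 or fewer.

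In the 7 against 7 comparison of Oxy186 with control, no proteasome gene passed the threshold. With the quasi-likelihood test of edgeR and p-values adjusted by Benjamini and Hochberg's method (threshold 0.05), 0 of 46 genes were called, as were 0 of all 16291 genes tested (0%). At an unadjusted p under 0.05 stood 0 of the 46 genes and 3.79% of all genes. The median log2 fold change of the 46 was 0.03, against -0.01 over all genes tested. There were 31 genes above 0 and 15 below it, where 48.9% of all genes lay above 0 (35.1% with GC offsets), a split that became 38 and 8 with RLE size factors and 17 and 29 with GC offsets. RLE size factors moved the median of all genes from -0.01 to 0.02 and that of the 46 from 0.03 to 0.05. With TMM scaling kept, the split was also 38 and 8 with all 21 libraries in one fit. It was 37 and 9 with at least 10 counts in every library, and 31 and 15 with limma voom. The share of all genes above 0 was not computed for these alternatives, and what moved the split was not tested. Without Oxy186 tumor 3 the split was 21 and 25 in a fit added after the data were seen. No other tumor was left out of this comparison.

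The smallest p-values belonged to PSMD3, PSMD7 and PSMB8. PSMD3, a scaffold subunit of the cap, ran from 110.9 through a median of 157.9 to 181.8 CPM in the controls and from 89.6 through 94.98 to 183.8 in Oxy186. In edgeR its log2 fold change was -0.36 ± 0.18 (SE) with an adjusted p of 0.862. Of the 7 Oxy186 tumors 4 lay below the lowest control, and the groups overlapped. PSMD7 ran from 46.3 through 54.6 to 71.6 CPM in the controls and from 52.5 through 68.1 to 108.2 in Oxy186, with a log2 fold change of 0.29 ± 0.15 (edgeR adjusted p 0.862). PSMB8, the immunoproteasome counterpart of PSMB5, ran from 22.0 through 29.6 to 33.1 CPM in the controls and from 15.3 through 27.2 to 29.7 in Oxy186. Its log2 fold change was -0.30 ± 0.16 (edgeR adjusted p 0.862), and 6 of 7 Oxy186 tumors lay below the control median.

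The other cutting subunits had intervals that spanned 0. The log2 fold changes with 95% intervals were 0.10 (-0.22 to 0.42) for PSMB5, 0.15 (-0.19 to 0.50) for PSMB6, -0.03 (-0.36 to 0.31) for PSMB7 and 0.05 (-0.41 to 0.51) for PSMB9. PSMB10 gave -0.52 with the widest interval, -1.51 to 0.47, and its 7 Oxy186 values fell into separate ranges. Among the activators, PSME1 gave 0.10 ± 0.13 (SE), PSME2 0.14 ± 0.12, PSME3 -0.04 ± 0.16 and PSME4 0.02 ± 0.12. PSMF1 gave 0.03 ± 0.15.

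In Oxy210 tumors most proteasome genes read slightly below the controls, though none passed the threshold. Again 0 of 46 genes were called by edgeR, as were 0 of 16396 genes (0%). At an unadjusted p under 0.05 stood 6 of the 46, all lower, against 13.8% of all genes in either direction and 8.12% lower. The median log2 fold change of the 46 was -0.07, against 0.01 over all genes, with 34 genes below 0 and 12 above it, where 48.7% of all genes lay below 0. Of the 8 epithelial and A549 markers 5 also lay below 0, with a median of -0.11, and KRT19 stood at -0.78 ± 0.21 (SE, unadjusted p 0.00166, edgeR adjusted p 0.246), a smaller p than that of any proteasome gene. The part of these markers in the result was not tested. The structural beta subunits, the constitutive cutting subunits, the immunoproteasome subunits and the core chaperones had all 14 of their members below 0. The alpha ring had 4 of 7 above 0 with a median of 0.06, while 4 of 6 cap ATPases and 7 of 11 cap non-ATPases lay below 0. The 6 genes were PSMB8, PSMG3, PSMB7, PSMD9, PSMB4 and PSMD8.

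PSMB8 ran from 15.3 through 21.95 to 25.65 CPM in Oxy210, and all 7 tumors lay below the control median of 29.6 while 4 lay below the lowest control. Its log2 fold change was -0.39 ± 0.12 (SE), with an unadjusted p of 0.00606 and an adjusted p of 0.27 in edgeR. PSMG3, a core assembly chaperone, ran from 40.1 through 45.8 to 66.3 CPM in the controls and from 33.1 through 37.9 to 45.5 in Oxy210, with a log2 fold change of -0.31 ± 0.11 (edgeR adjusted p 0.288). All 7 of its Oxy210 values lay below the control median. PSMB7, which cuts after basic residues, ran from 109.7 through 126.6 to 196.4 CPM in the controls and from 96.9 through 102.2 to 132.9 in Oxy210, with a log2 fold change of -0.34 ± 0.13 (edgeR adjusted p 0.303). For these 3 genes the groups still overlapped.

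The remaining cutting subunits gave log2 fold changes, with 95% intervals, of -0.06 (-0.30 to 0.19) for PSMB5, -0.23 (-0.54 to 0.08) for PSMB6, -0.08 (-0.42 to 0.25) for PSMB9 and -0.42 (-0.95 to 0.11) for PSMB10. The activators gave -0.15 ± 0.11 (SE) for PSME1, -0.01 ± 0.11 for PSME2, -0.09 ± 0.12 for PSME3 and 0.04 ± 0.11 for PSME4, and PSMF1 gave -0.23 ± 0.14. This comparison and the former share their 7 control tumors.

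Set against each other at the same dose, Oxy186 tumors read higher than Oxy210 tumors in 40 of 46 proteasome genes, and no gene passed the threshold. In edgeR 0 of 46 genes were called, as were 0 of 16361 genes (0%). At an unadjusted p under 0.05 stood 6 of the 46, all higher, against 4.06% of all genes in either direction and 3.14% higher. The median log2 fold change of the 46 was 0.18, against -0.01 over all genes tested, of which 48.5% lay above 0. With GC offsets 38 of 46 genes lay above 0 with a median of 0.14, against 43.2% of all genes. In fits added after the data were seen, 40 of 46 lay above 0 without Oxy186 tumor 3 and 39 without Oxy210 tumor 5, but the number at an unadjusted p under 0.05 fell to 1 and 2. The 8 epithelial and A549 markers also all lay above 0 here, with a median of 0.21, and KRT19 stood at 0.56 ± 0.20 (SE, edgeR adjusted p 1.0). The 3 stroma and vessel markers past the filter, counted on human genes, all lay below 0, with a median of -0.38. The part of both lists in the result was not tested.

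PSMB7 and PSMB6 had the smallest p-values, followed by PSMC5, an ATPase of the cap. PSMB6, which cuts after acidic residues, ran from 105.2 through 138.5 to 202.5 CPM in Oxy186 and from 72.9 through 101.8 to 146.0 in Oxy210, and all 7 Oxy186 tumors lay above the Oxy210 median. Its log2 fold change was 0.41 (95% interval 0.05 to 0.76, edgeR adjusted p 1.0). PSMB7 ran from 98.8 through 154.1 to 171.6 CPM in Oxy186, with a log2 fold change over Oxy210 of 0.34 (0.05 to 0.62, edgeR adjusted p 1.0). PSMC5 ran from 132.6 through 178.2 to 223.3 CPM in Oxy186 and from 113.2 through 138.1 to 178.9 in Oxy210, with a log2 fold change of 0.31 (0.04 to 0.58, edgeR adjusted p 1.0). In each of the 3 genes the ranges of the groups overlapped.

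The differences between the compounds in the remaining named genes were, with 95% intervals, 0.18 (-0.15 to 0.51) for PSMB5, 0.12 (-0.23 to 0.46) for PSMB8, 0.17 (-0.29 to 0.62) for PSMB9 and -0.07 (-1.08 to 0.93) for PSMB10. PSME1 gave 0.28 (0.02 to 0.53) and PSME2 0.18 (-0.05 to 0.41). PSME3 gave 0.07 (-0.24 to 0.38), PSME4 0.01 (-0.27 to 0.29) and PSMF1 0.28 (-0.06 to 0.62). These intervals leave room for differences of either size within them, and a missed threshold does not show that the compounds act alike.

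**Figure D3:**
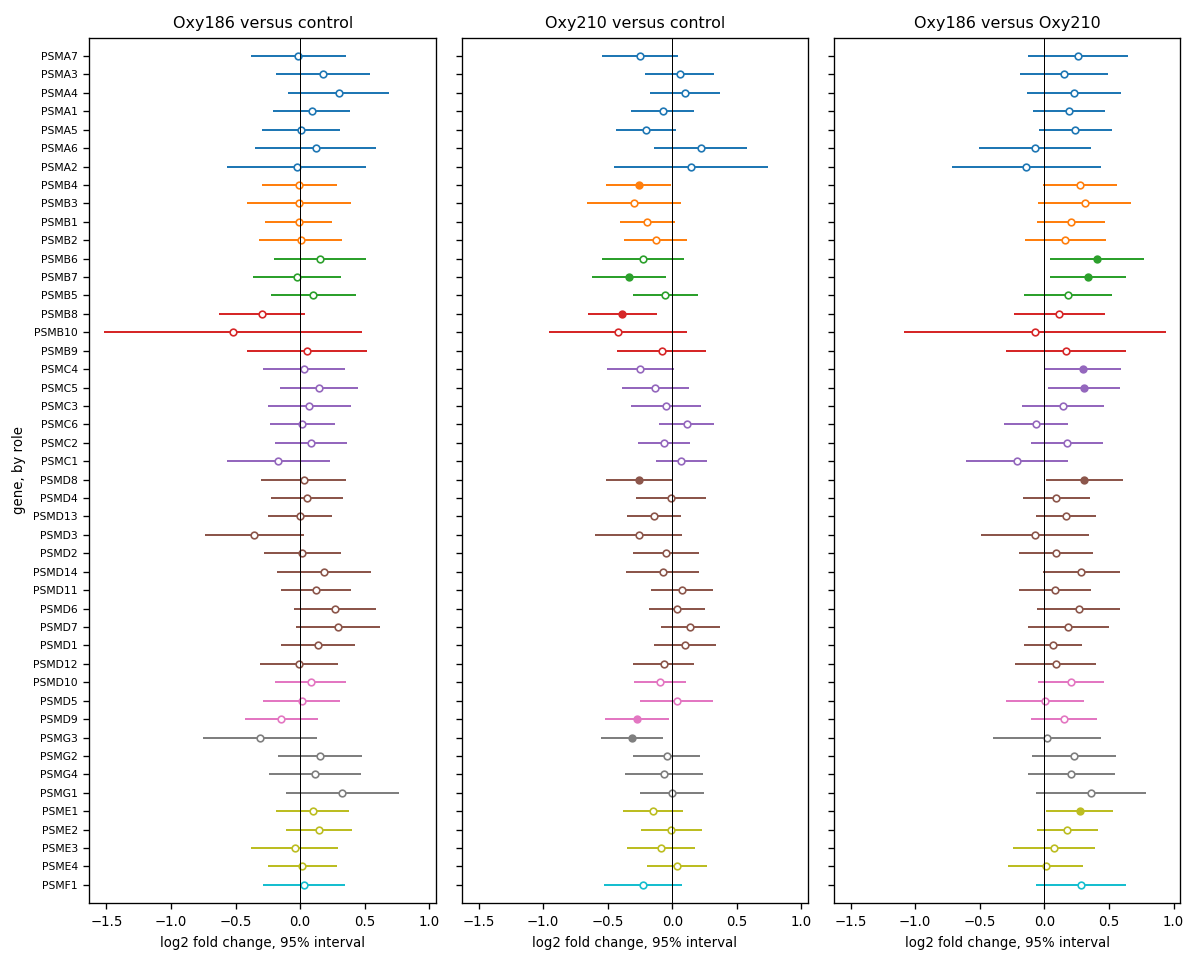
Log2 fold change from edgeR (points) and 95% interval derived from its F statistic (lines) for the 46 genes in the 3 comparisons of 7 against 7 tumors. Genes are ordered and coloured by role, and filled points have an unadjusted p under 0.05. No point is filled for Oxy186 versus control, 6 are filled below 0 for Oxy210 versus control, and 6 above 0 for Oxy186 versus Oxy210.

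The balance between immunoproteasome and constitutive subunits was followed as a ratio of CPM within each tumor, which is free of library size and serves to compare tumors, not genes. PSMB8 amounted to between 16.9% and 27.4% of PSMB5 in the controls, with a median of 23.9%. In Oxy186 it was between 12.1% and 22.0% with a median of 18.3%, and in Oxy210 between 16.0% and 22.3% with a median of 17.7%. The groups overlapped, since Control 6 stood at 16.9%, and all 14 treated tumors lay below the control median. The mean log2 ratio was lower by 0.40 in Oxy186 than in control (two-sided exact permutation test, p = 0.00991, Benjamini-Hochberg adjusted p over 9 ratio tests 0.063) and by 0.33 in Oxy210 (exact p = 0.014, adjusted 0.063). Neither passed 0.05 after adjustment, and both did, with adjusted p = 0.0393 in exact permutation tests, once each library's GC trend was removed. Oxy186 and Oxy210 differed by -0.06 in this ratio (exact p = 0.639).

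PSMB9 amounted to a median of 3.40% of PSMB6 in the controls, 3.17% in Oxy186 and 4.16% in Oxy210, and none of its 3 differences passed (exact permutation, adjusted p from 0.427 to 0.693). PSMB10 amounted to between 3.15% and 7.17% of PSMB7 in the controls and between 3.13% and 8.46% in Oxy210. In Oxy186 it fell into separate ranges, 0.939% to 1.54% in r1-r4 and 4.35% to 7.71% in r5-r7. Over all 7 Oxy186 tumors the difference from control in the mean log2 ratio was -0.93, with an exact permutation adjusted p of 0.257.

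**Figure D4:**
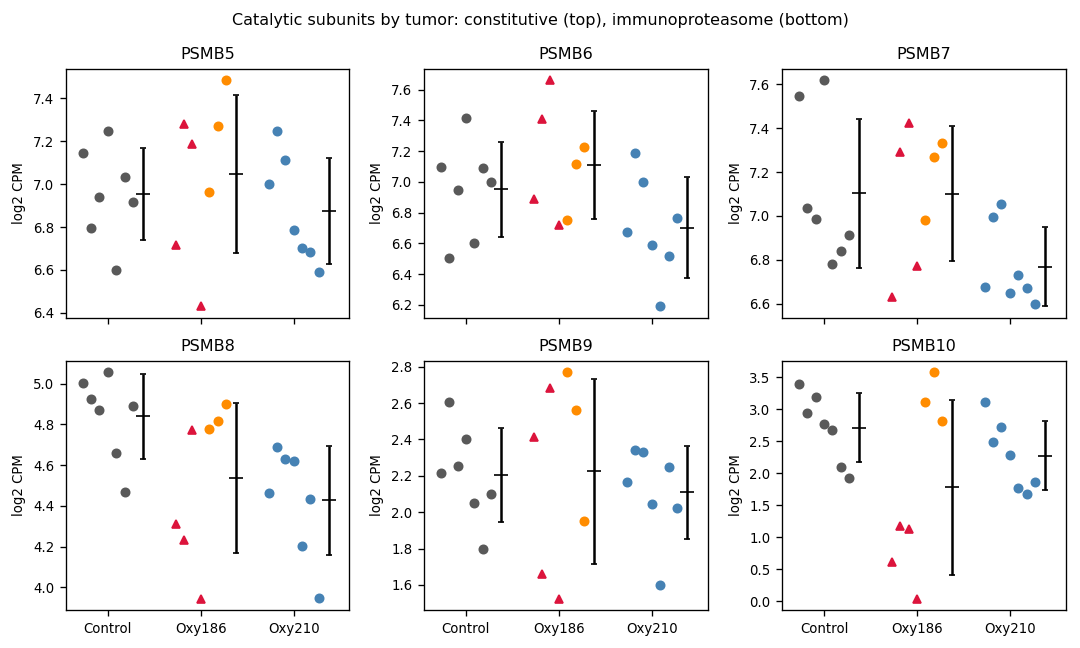
Log2 CPM of the 3 constitutive (top) and the 3 immunoproteasome (bottom) cutting subunits in each tumor by group, with red triangles for Oxy186 r1-r4, grey, orange and blue points for Control, Oxy186 r5-r7 and Oxy210, and black bars for the mean and SD of the 7 tumors of a group; each panel has its own vertical range. The 4 red triangles of PSMB10 lie below every other tumor, while those of PSMB5, PSMB6, PSMB7 and PSMB9 overlap with the other tumors. With each library's GC trend removed (not drawn), PSMB10 in r3 stood at 2.04, above Oxy210 tumors 6 (1.83) and 7 (2.02).

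Correlations of log2 CPM across the 21 tumors were computed for 8 pairs of genes, and no test compared one pair with another. PSMB8 and PSMB10 had a Pearson r of 0.699 (100000-permutation p = 0.00041, adjusted over 8 pairs 0.0026) and a Spearman rho of 0.688 (permutation p = 0.00078, adjusted 0.00616), with r = 0.632 without the 2 tumors farthest from the median of PSMB8 and 0.638 without Oxy186 r1-r4. PSME1 and PSME2, which are transcribed from neighbouring places on chromosome 14, had r = 0.676 (permutation p = 0.00065, adjusted 0.0026) and rho = 0.655 (permutation p = 0.00154, adjusted 0.00616), and r = 0.486 without the 2 farthest tumors. PSMB8 and PSMB9, whose genes lie on opposite strands of chromosome 6, had r = 0.615 (permutation p = 0.0029, adjusted 0.00773). Their rho was 0.535 (permutation p = 0.0134, adjusted 0.0286), and r was 0.534 without the 2 farthest. PSMB8 and PSMB5 had r = 0.59 (permutation p = 0.00473, adjusted 0.00946) and rho = 0.531 (permutation p = 0.0143, adjusted 0.0286), but r = 0.374 without the 2 farthest tumors.

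For PSMB9 and PSMB10 r was 0.443 (permutation p = 0.0437, adjusted 0.0699) and rho 0.371 (permutation p = 0.0989, adjusted 0.132), and r was 0.227 without the 2 farthest. The pair PSMB10 and PSMB7 gave r = 0.334 (permutation p = 0.138, adjusted 0.184) and rho = 0.405 (permutation p = 0.0681, adjusted 0.109). PSMB9 and PSMB6 gave r = 0.239 (permutation p = 0.294, adjusted 0.315) and rho = 0.183 (permutation p = 0.427, adjusted 0.488). PSMB9 and TAP1, the peptide transporter gene beside it, gave r = 0.231 (permutation p = 0.315, adjusted 0.315) and rho = 0.084 (permutation p = 0.714, adjusted 0.714). Without the 2 farthest tumors these 3 pairs had r of 0.191, -0.015 and -0.151. Without r1-r4, over 17 tumors, r was 0.61 for PSMB10 with PSMB7, 0.608 for PSMB9 with PSMB10, 0.596 for PSMB8 with PSMB5, 0.616 for PSME1 with PSME2 and 0.525 for PSMB8 with PSMB9, so these partner pairs and inducible pairs stood close together. PSMB9 with PSMB6 (0.243) and with TAP1 (0.12) stayed lower.

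In the comparison the study itself made, of Oxy186 r1-r4 with the 7 controls, 7 proteasome genes passed the threshold, 5 lower and 2 higher. In edgeR 7 of 46 genes were called (15.2%), against 19.7% of 16852 genes tested. By direction these were 10.9% lower against 15% of all genes, and 4.35% higher against 4.73%, so the shares of the proteasome genes did not exceed those of all genes. Only PSMB10 also changed by more than 2-fold, 2.17% of the 46 against 8.34% of all genes. The median log2 fold change was 0.07 for the 46, with 29 above 0 and 17 below it, and 0.01 for all genes tested, 50.5% of which lay above 0. With GC offsets the split was 17 above and 29 below, with 34.3% of all genes above 0.

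PSMB10 (ENSG00000205220.12, GRCh38 chr16:67934506-67936864, minus strand) fell most. Its values were 1.39, 2.12, 2.05 and 0.894 CPM in r1 to r4, against 3.66 to 10.35 in the controls and 8.47, 11.76 and 6.89 in r5 to r7. All 4 tumors lay below every control, and r5-r7, which were not tested, lay within or above the control range. With each library's GC trend removed, r3 stood at a log2 CPM of 2.04 and Control 6, the lowest control, at 2.05. The log2 fold change of PSMB10 without GC offsets was -2.08 ± 0.33 (SE, edgeR adjusted p 0.00118). AC040162.1, the read-through gene that shares exons with it, had 10 to 41 counts in a library and a log2 fold change of -0.45 ± 0.33 (edgeR adjusted p 0.36).

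PSMC1 (ENSG00000100764.14, chr14:90256527-90275429, plus strand), the ATPase whose tail opens the gate of the core, was the other gene with all 4 tumors below every control. It ran at 23.7, 23.3, 33.5 and 24.3 CPM in r1 to r4, at 34.0 to 45.5 in the controls and at 42.6 to 55.1 in r5-r7. Its log2 fold change was -0.58 ± 0.14 (SE, edgeR adjusted p 0.00813), while NRDE2, which overlaps it on the opposite strand, gave 0.00 ± 0.13 (edgeR adjusted p 0.985). No other ATPase of the cap was called, and the other 5 had log2 fold changes above 0. Groups without overlap, lower, made up 4.35% of the 46 genes and 8.48% of all genes.

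The 3 other lower genes overlapped with the controls. PSMG3, the core chaperone, ran from 18.9 to 44.1 CPM in r1-r4 against 40.1 to 66.3 in the controls, with a log2 fold change of -0.68 ± 0.20 (edgeR adjusted p 0.0274). PSMD3 ran from 89.6 to 121.3 CPM against 110.9 to 181.8, with a log2 fold change of -0.59 ± 0.16 (edgeR adjusted p 0.0192). PSMB8 ran from 15.3 to 27.2 CPM against 22.0 to 33.1, with a log2 fold change of -0.51 ± 0.17 (edgeR adjusted p 0.0411). In each, 3 of the 4 tumors lay below the lowest control and 4 of 4 below the control median.

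The 2 higher genes were subunits of the cap lid. PSMD7 ran from 59.9 to 108.2 CPM in r1-r4 against 46.3 to 71.6 in the controls, with a log2 fold change of 0.48 ± 0.15 (edgeR adjusted p 0.0391). PSMD6 ran from 59.7 to 110.0 CPM against 51.7 to 66.6, with a log2 fold change of 0.47 ± 0.15 (edgeR adjusted p 0.0354). In both, 3 of 4 tumors lay above the highest control. The largest positive value, 0.58 ± 0.20 for the core chaperone PSMG1, missed the threshold (edgeR adjusted p 0.0533). When each of r1-r4 was left out in turn, PSMB10 and PSMC1 were called in all 4 fits. PSMB8 was called only without r3 (edgeR adjusted p 0.0175), and PSMD6 (adjusted p 0.0107) and PSMD7 (adjusted p 0.0177) only without r1. PSMG3 was called without r2 (edgeR adjusted p 0.00549) and not without any other, and PSMD3 was not called without r3 (adjusted p 0.0641) or r4 (adjusted p 0.0852).

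Of the remaining named genes none was called in r1-r4. The log2 fold changes were -0.03 ± 0.17 (SE) for PSMB5, 0.24 ± 0.19 for PSMB6, -0.08 ± 0.20 for PSMB7 and -0.08 ± 0.25 for PSMB9. The activators gave 0.22 ± 0.15 for PSME1, 0.12 ± 0.15 for PSME2, 0.09 ± 0.15 for PSME3 and 0.22 ± 0.11 for PSME4, and PSMF1 gave 0.15 ± 0.14. Of the immunoproteasome set, PSMB8 and PSMB10 were thus lower and PSMB9 was not called.

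The GC content of the exons moved with these fold changes. The exons of the 46 genes hold between 35.1% and 63.0% G and C, with a median of 47.3%, and across them GC content and the r1-r4 log2 fold change had a Pearson r of -0.57, given as a description because genes are not independent replicates and share the same libraries. PSMB10 has the highest GC content, 63.0%, and PSMG3 the next, 59.6%. The level of PSMB10 followed the GC slope of the library over the 21 tumors, with r = 0.91 (permutation p = 1e-05, the smallest that 100000 permutations can give, adjusted over the 7 called genes 4.67e-05) and rho = 0.914 (permutation p = 1e-05, adjusted 3.5e-05), r = 0.889 without the 2 farthest tumors and 0.894 without r1-r4. These 7 relations were chosen after the data were seen, from genes called in r1-r4, whose slopes all lay below those of the controls. The permutation p-values over 21 tumors are therefore partly set by that choice, and none was computed without r1-r4. The slope is itself taken from genes of the same libraries. The other 4 lower genes had r from 0.61 in PSMB8 to 0.852 in PSMD3, and PSMD6 and PSMD7 had -0.747 and -0.743, all with permutation p-values of at most 0.00367. Without r1-r4 the 4 lower genes had r from 0.48 to 0.843, and the 2 higher ones -0.627 and -0.625. The relation was not confined to the called genes, since PSMA3, PSME4 and PSMD12 had r of -0.828, -0.808 and -0.777 over the 21 tumors, given as a description.

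In a fit that took the GC trend of every library as an offset, 3 of the 7 calls were kept, all lower, 6.52% of the 46 genes against 5.0% of all genes in either direction and 4.11% lower. The median of all genes tested moved from 0.01 to -0.11 under these offsets, so values are best read against that. PSMC1 stood at -0.82 (edgeR adjusted p 0.0027), PSMB10 at -1.15 (adjusted p 0.0183) and PSMB8 at -0.56 (adjusted p 0.05), while PSMD3 at -0.36 and PSMG3 at -0.13 were no longer called. PSMD7 at 0.20 and PSMD6 at 0.11 were no longer called either. The median of the 46 genes became -0.13. Which of the values describes the tumors was not tested, and the choice of r1-r4 and the GC slope cannot be told apart in this comparison.

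**Figure D5:**
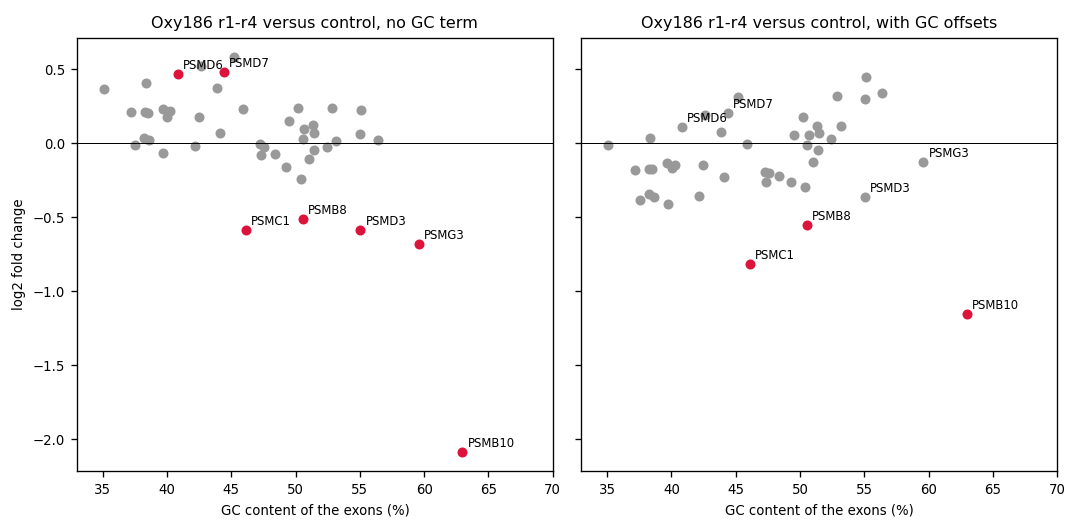
GC content of the exons (%) against the log2 fold change of Oxy186 r1-r4 over control for each of the 46 genes, without a GC term (left) and with GC offsets (right); red points have an edgeR adjusted p at or under 0.05 in that fit, and the 7 genes called on the left are named in both panels. PSMB10 at the far right moves from -2.08 to -1.15, and PSMC1 near the centre from -0.58 to -0.82.

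The other genes of the ubiquitin and proteasome system were read from lists chosen for their roles. None of the 16 other proteasome genes, 10 regulators, 6 ubiquitin and E1 genes and 12 antigen presentation partners was called by edgeR in the 3 comparisons of 7 against 7 tumors, and their median log2 fold changes lay between -0.17 and 0.18. By the fixed rule of smallest p in Oxy186 against control, these were UBE3C and RAD23B, MAFF and MAFG, UBB and UBA6, and TAPBP and IRF1, with log2 fold changes from -0.51 (MAFF) to 0.16 (UBB), and adjusted p from 0.862 to 0.933. In Oxy210 against control, 2 of the 6 ubiquitin and E1 genes stood lower at an unadjusted p under 0.05 in edgeR. So did 1 of 10 regulators, 1 of 12 antigen presentation partners and 0 of 16 other proteasome genes, against 8.12% of all genes. The ubiquitin gene RPS27A, whose product also carries a ribosomal protein, was among them, at -0.37 ± 0.13 (SE, edgeR adjusted p 0.288).

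In r1-r4 against control, where 19.7% of all genes were called, 1 of 16 other proteasome genes was called by edgeR, ADRM1, a ubiquitin receptor of the cap, at -0.86 ± 0.19 (adjusted p 0.00628). Of the 10 regulators 5 were called, and of the 12 antigen presentation partners 2, against that same 19.7%. NFE2L2, which encodes NRF2, was at 0.56 ± 0.14 (edgeR adjusted p 0.0117), and NGLY1, which processes the related factor NRF1, at 0.37 ± 0.11 (adjusted p 0.027). NFE2L1, which encodes NRF1 itself, was not called. Its log2 CPM ran from 6.70 to 7.45 in r1-r4, against 7.23 to 7.67 in the controls. The small MAF partners MAFK and MAFG stood at -1.82 ± 0.35 (edgeR adjusted p 0.00299) and -0.57 ± 0.15 (adjusted p 0.0146). KEAP1 stood at -0.60 ± 0.20 (edgeR adjusted p 0.0459). The activity of NRF2 was not measured. Of the 12 antigen presentation partners B2M was at 0.50 ± 0.17 (edgeR adjusted p 0.0464) and TAPBP at -0.54 ± 0.18 (adjusted p 0.0428). None of the 8 called genes kept its call with GC offsets. There, for example, ADRM1 stood at 0.28 (edgeR adjusted p 0.259), KEAP1 at 0.35 (adjusted p 0.151) and MAFK at -0.89 (adjusted p 0.116). UBE3C, a ubiquitin ligase, was instead called with GC offsets, at -0.41 (edgeR adjusted p 0.0346), and stood at -0.17 (adjusted p 0.3) without them.

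No gene of the marker lists was called in any of the 4 comparisons. In Oxy186 against control the smallest p-values among the epithelial markers were those of ALDH1A1 at 0.28 ± 0.17 (SE) and KRT19 at -0.24 ± 0.23. Among the 3 stroma and vessel markers past the filter they were those of COL1A1 at -0.28 ± 0.25 and ACTA2 at -0.16 ± 0.26. The edgeR adjusted p of these genes ran from 0.862 to 0.909. The stroma list, counted on human genes only, summed to between 34.65 and 71.96 CPM in the controls and between 22.5 and 45.1 in r1-r4. Its part in the results was not tested.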

How the data were processed

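RNA from 21 A549-Luc2 xenograft tumors was sequenced by the authors from samples with an RNA integrity number above 8. Per the submitters' processing notes, reads were trimmed with Trimmomatic 0.39, aligned with STAR 2.7.6a to human (GRCh38.p13) and mouse (GRCm39) sequence and counted with featureCounts of Subread 2.0.1, and the authors deposited raw counts per human gene. A second table deposited by the authors holds log2 CPM for 16852 genes and was used only as a check, where recomputed values differed by at most 4.97e-14. Here edgeR 4.0.16 (R 4.3.3) was run with filterByExpr, TMM scaling and glmQLFTest over all genes of each comparison, with Benjamini-Hochberg adjustment and a threshold of 0.05. That test returns no standard error, so SE was derived as the absolute log2 fold change divided by the square root of its F statistic. The 95% intervals were built from this SE with the t distribution. CPM values use TMM-scaled library sizes. GC trends per library were splines of log2 CPM on exon GC content (GENCODE 44). Alternatives used DESeq2 1.42.0 and limma 3.58.1. Levels per kb use the canonical transcript and not, as planned, the exons of all isoforms together.

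In simulated data for Oxy186 versus control, 197 of 200 genes changed 4-fold were recovered among 16056 genes, with 3 false calls. For r1-r4 versus control it was 200 of 200 among 16540, with 7 false calls. The simulation held no GC trend, and smaller changes were not simulated, so recovery of those is not known. The closest pair of libraries within a group differed by a chi-square of 10.9 per degree of freedom, so none was counted as a duplicate. Groups were taken from the labels. Genes named were the 6 cutting subunits, the activators and PSMF1, the 3 members with the largest rise and fall among those called or else with the smallest p, the 3 most and 3 least abundant, members removed by the filter, and 2 genes of each other list. Members and lists were chosen with earlier results of these data known.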

Additional observations from a re-analysis of the deposited data

Results flagged for a closer look

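In 5 of 147 sets of 7 tumors (1 of the 46 genes or of the 3 subunit ratios, in 1 of the 3 groups), a single tumor stood far from the others by Dixon's test, where chance alone gives about 1 in 20, or 7.3. PSMD14, the deubiquitinase of the cap, was at a log2 CPM of 6.397 in Oxy210 tumor 2, against 6.1 to 6.219 in the other Oxy210 tumors. The alpha subunit PSMA1 was at 5.153 in Oxy210 tumor 1, against 5.487 to 5.601 in the others. PSMA4, another alpha subunit, was at 7.794 in that same tumor, against 8.067 to 8.264. PSME3, the nuclear activator, was at 6.726 in Oxy186 tumor 5, against 7.366 to 7.808 in the other Oxy186 tumors. PSMF1, which encodes PI31, was at 6.394 in that tumor too, against 7.068 to 7.399.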

How the results depend on the processing

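In the comparisons of 7 against 7 tumors no gene of the set was called by edgeR, DESeq2 or limma under any alternative run, so the settings bear on r1-r4 against control. There, 2 genes were called higher and 5 lower, and the higher count became 5 with DESeq2 and with all 21 libraries in one fit, 1 without the low-count filter and 0 with GC offsets. The lower count became 3 with GC offsets, and the median log2 fold change of the set -0.13. Leaving out one of the 4 tumors gave 0 to 5 higher and 2 to 4 lower calls. With the GC trend removed, the PSMB8/PSMB5 log2 ratio differences were -0.4421 (Oxy186) and -0.3624 (Oxy210, exact permutation adjusted p 0.0393 each), the PSMB10/PSMB7 difference of Oxy210 from control turned to 0.1621, and r of PSMB9 with PSMB10 rose to 0.621 (permutation adjusted p 0.00797).

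Whether the replicate numbers pair the tumors is not stated in the labels. Correlations of same-numbered tumors ran from -0.398 to 0.3287. Tumors with different numbers were not correlated for comparison, so these values cannot decide it. With the replicate block the r1-r4 counts were 0 higher and 2 lower, and with block and GC offsets 0 higher and 1 lower, with a median of -0.1574.

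Among the cutting subunits, the activators and PSMF1, some log2 fold changes near 0 changed sign. With GC offsets these were PSMB9 -0.031, PSME4 -0.1582 and PSMF1 -0.0311 in Oxy186 against control, PSME2 0.0179 and PSME4 -0.1015 in Oxy210 against control, PSME4 -0.0286 in Oxy186 against Oxy210, and PSMB5 0.0273 and PSME4 -0.1446 in r1-r4. With the replicate block and GC offsets they were PSMB9 -0.0852, PSME4 -0.1597 and PSMF1 -0.0405, then PSME2 0.025 and PSME4 -0.1016, then PSME4 -0.0298, and in r1-r4 PSME4 -0.1716 and PSMF1 -0.0056. With at least 10 counts in every library PSME4 stood at -0.0037 in Oxy186 against Oxy210. Genes of the 46 outside this named set changed sign as well and are not listed. In Oxy186 against control the genes above 0 went from 31 to 17 with GC offsets. The median of all genes tested moved there from -0.0067 to -0.0637.

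In fits chosen after seeing the data, without Oxy186 tumor 3 PSMB9 was at -0.0147, PSME4 at -0.0264 and PSMF1 at -0.0076 against control, and PSMB10 at 0.0605 and PSME4 at -0.0225 against Oxy210. Without Oxy210 tumor 5, PSME2 was at 0.0166 and PSME4 at -0.0427 against control, and PSMB10 at -0.1463 and PSME4 at 0.0874 in Oxy186 against Oxy210. Leaving out each of r1-r4 gave ranges of -0.158 to 0.1556 for PSMB5, -0.2147 to 0.0594 for PSMB7 and -0.3106 to 0.1313 for PSMB9. The cause of these changes was not tested. Counts of PSMB10 were as low as 14 in a library, which limits its precision.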
